A study of Mus musculus with 12 samples.

Results

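Cytosolic ribosomal proteins were followed in mouse hearts after pressure overload, with and without ADAM12. They were taken by symbol: every gene whose symbol starts with Rpl or Rps and a digit, together with Rplp0, Rplp1, Rplp2 and Rpsa. Symbols of pseudogenes marked -ps and the Rps6k kinases were left out. The rule gave 38 of the 26989 genes read on a probe set that carries 1 gene symbol. By symbol, 22 are named for the large subunit and 14 for the small subunit. Of these, Rpl6l (large) and Rps3a2 and Rps3a3 (small) are pseudogenes per RefSeq, which leaves 21 and 12 coding genes. The symbol rule also takes in Rps19bp1, a binding protein of RPS19, and Rps23rg1, a retrogene of Rps23, which are not counted to a subunit.

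RNA came from whole hearts of 10-week-old male C57BL/6J mice, taken 2 weeks after surgery. The 4 groups were ADAM12 knockout mice with transverse aortic constriction (KO TAC), ADAM12 knockout mice with a sham operation (KO sham), wild-type mice with constriction (WT TAC) and wild-type mice with a sham operation (WT sham). Each group had 3 biological replicates, 1 array each, hybridised to Clariom D arrays. How the knockout allele was made and whether the wild types were littermates is not given in the sources used here. Constriction of the aorta (TAC) makes the left ventricle work against a higher load, and ADAM12 is a membrane-anchored metalloprotease.

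A cytosolic ribosome joins a small subunit, which reads the mRNA, to a large subunit, which forms the peptide bond. Each subunit is built from ribosomal RNA and a set of proteins that are made in near-equal amounts and assembled in the nucleolus. Their mRNAs begin with a stretch of pyrimidines, the terminal oligopyrimidine or TOP motif, through which mTOR signalling sets their translation. A heart that grows under load makes more protein, and added ribosomes are a known feature of that growth. The mitochondrial ribosome is a separate machine with its own proteins.

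The arrays were alike in signal: on the log2 scale used throughout, the median over all genes lay between 5.36 and 5.50, and that of the background probe sets between 2.96 and 3.17. The correlation between replicate arrays was 0.994 to 0.997 over genes, which are not independent. Adam12, on a dim probe set shared with another symbol, read 4.25 to 4.40 in KO TAC hearts, 4.32 to 4.40 in KO sham hearts, 4.56 to 4.80 in WT TAC hearts and 4.46 to 4.61 in WT sham hearts. The mean level of 9 cardiomyocyte markers was 16.6 to 16.8 on every array. This mean covers moves in both directions: with TAC in KO hearts 2 of the 9 were called higher and 3 lower. Over all genes 7.08% were called higher and 5.68% lower. The mean of 4 atrial markers varied from 11.7 to 15.1 between arrays, with overlapping groups. Array values measure a signal per probe set, and levels of different genes are not set against each other here.

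Ribosomal protein genes read slightly higher after TAC in KO hearts. Their median difference, KO TAC minus KO sham, was 0.15 on the log2 scale, beside -0.03 over all genes tested. Of the 38 genes, 33 had a positive difference, beside 42.6% of all genes. In limma, fitted and adjusted over all genes, 7 of 38 rose and 0 fell at an adjusted p under 0.05 for these members. That is 18.4% called higher, beside 7.08% of all genes called higher, 5.68% called lower and 12.8% called in either direction. The share over all genes takes in many dim ones, while only 2 of the 38 members had a mean signal under 5. In a fit without genes dimmer than 5, 26.7% of the 15315 genes left were called in either direction. That share comes from another fit and counts both directions, so it cannot be set directly against the 18.4%. Unadjusted, 17 members had a p under 0.05, beside 24.4% of all genes, and 16 of the 17 were positive (42.1% of members, beside 12.3% of all genes). The 3 KO TAC arrays lay above the 3 KO sham arrays for 20 of 38 genes, beside 15.4% of all genes, and below them for 0 of 38, beside 16.9% of all genes. In bulk tissue, a change in the number of cells of a type and a change in RNA per cell cannot be told apart.

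The same could be seen array by array. After centring each gene on its mean over the 12 arrays, the median of the 38 genes was 0.13, 0.17 and 0.08 in KO TAC replicates 1 to 3. It was -0.07, -0.03 and -0.0047 in KO sham replicates. In WT TAC replicates it was 0.01, 0.02 and -0.01, and in WT sham replicates -0.05, -0.06 and -0.14. All 3 KO TAC arrays thus stood above the other 9. The pooled SD of these medians within groups was 0.04. For 11 of 38 genes, each KO TAC array lay above all 9 others, beside 5.59% of all genes. These were Rpl6, Rpl7, Rpl12, Rpl19, Rpl39, Rps3a1, Rps3a2, Rps3a3, Rps4x, Rps7 and Rps24, of which Rps3a2 and Rps3a3 are pseudogenes. For 0 of 38 did the KO TAC arrays lie below all others, beside 4.54% of all genes.

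**Figure D1:**
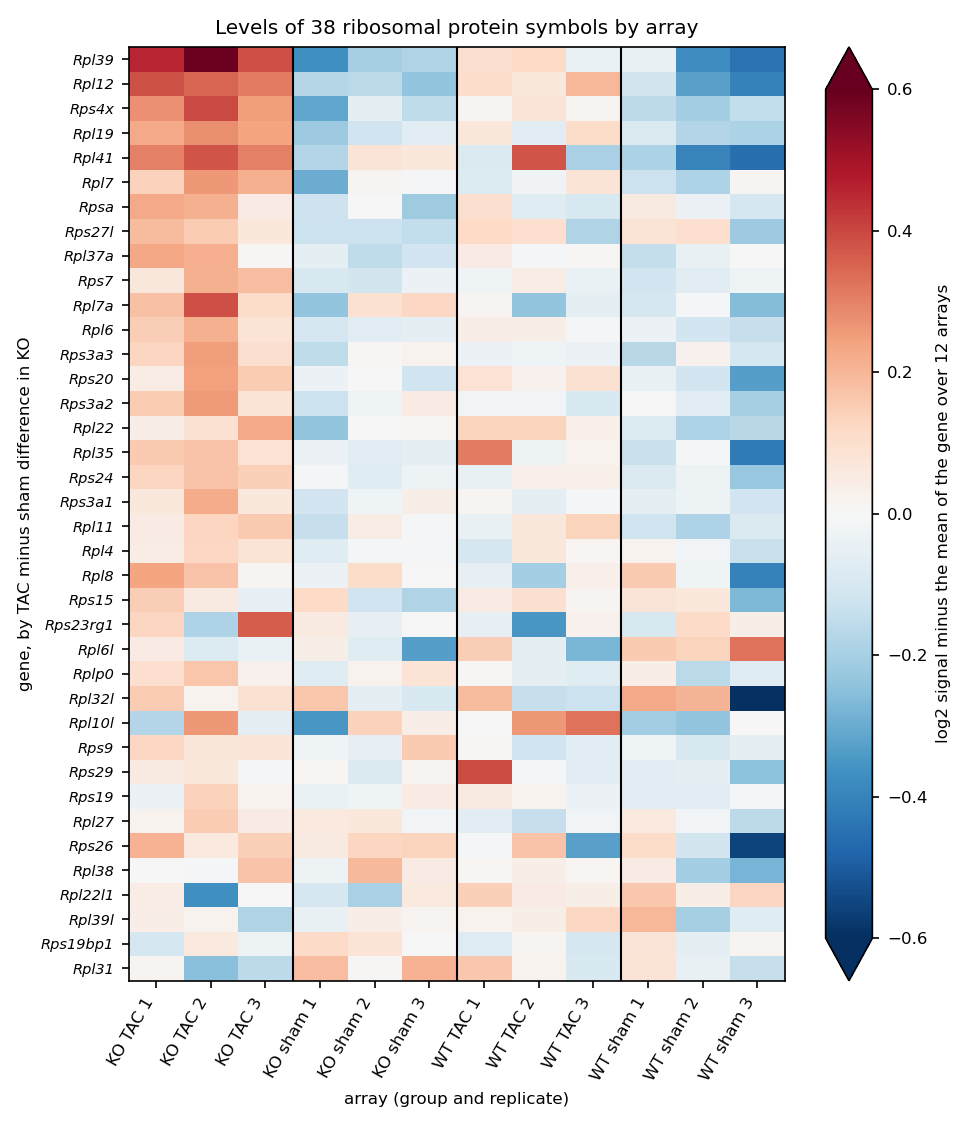
Log2 signal of the 38 genes (rows) on the 12 arrays (columns: KO TAC, KO sham, WT TAC, WT sham), each gene centred on its mean over all arrays, with genes ordered by their TAC minus sham difference in KO hearts. Red is above and blue below the mean of the gene; colours saturate at the ends of the scale. The KO TAC columns are red for most rows, with medians of 0.13, 0.17 and 0.08.

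Markers of other cell types moved with the same contrast. In KO hearts TAC raised 8 of 9 fibroblast markers, 8 of 8 macrophage markers and 6 of 8 markers of proliferating cells, and 2 of 8 endothelial markers, beside the 7.08% of all genes called higher. The mean level of the fibroblast markers was 12.1 to 12.5 in KO TAC hearts, 10.1 to 10.3 in KO sham hearts, 10.5 to 11.8 in WT TAC hearts and 10.1 to 10.3 in WT sham hearts. That of the macrophage markers was 9.28 to 10.12 in KO TAC hearts, 8.17 to 8.59 in KO sham hearts, 8.99 to 9.14 in WT TAC hearts and 8.31 to 8.58 in WT sham hearts. Markers of proliferating cells averaged 5.35 to 6.06 in KO TAC hearts, 4.76 to 5.05 in KO sham hearts, 4.98 to 5.39 in WT TAC hearts and 4.74 to 4.96 in WT sham hearts. None of 7 lymphocyte markers was called, and of 9 cardiomyocyte markers 2 rose and 3 fell. The lymphocyte markers averaged 4.47 to 4.66 over the arrays, a dim signal under 5, so their lack of calls says little. Birc5, the lowest of the markers of proliferating cells, was also dim, with a mean of 3.94. The part of these cell types in the rise of the ribosomal proteins was not tested.

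Genes of both subunits were among those that rose. In KO hearts the 21 coding genes of the large subunit had a median difference of 0.15, with 17 positive and 5 risen (23.8%). The 12 coding genes of the small subunit had a median of 0.17, with all 12 positive and 2 risen (16.7%). Over all genes 42.6% were positive and 7.08% were called higher. With the pseudogenes included, the medians were 0.13 over 22 and 0.19 over 14. The pseudogenes Rps3a2 and Rps3a3 both differed by 0.20 and the coding gene Rps3a1 by 0.15, none of them called, and probes may not separate these copies. The 7 genes that rose were Rpl39, Rpl12, Rps4x, Rpl19, Rpl37a, Rps7 and Rpl6.

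Rpl39 encodes a very small protein that lines the exit tunnel of the large subunit. It read 9.83, 9.96 and 9.75 in KO TAC hearts, against 9.00, 9.17 and 9.18 in KO sham hearts. In WT TAC hearts it read 9.46, 9.49 and 9.32, against 9.32, 8.99 and 8.92 in WT sham hearts. All TAC arrays lay above the sham arrays of their genotype, and all KO TAC arrays above the other 9. In WT hearts this was by a hair, 9.325 in WT TAC replicate 3 against 9.321 in WT sham replicate 1. The difference was 0.73 ± 0.11 in KO hearts (limma adjusted p = 0.00134), a 1.66-fold rise and the largest of the 38. In WT hearts it was 0.35 ± 0.11 and did not pass (limma adjusted p = 0.216).

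Rpl12 encodes a protein at the base of the stalk where elongation factors bind. It read 14.78, 14.75 and 14.71 in KO TAC hearts, against 14.23, 14.24 and 14.16 in KO sham hearts. In WT TAC hearts it read 14.51, 14.47 and 14.60, against 14.29, 14.07 and 14.00 in WT sham hearts. Neither genotype's groups overlapped. The difference was 0.53 ± 0.08 in KO hearts (limma adjusted p = 0.00158) and 0.40 ± 0.08 in WT hearts (limma adjusted p = 0.0824). The identifier of this probe set carries chromosome 10, while the gene lies on chromosome 2, and which transcripts it reads is not known here. A probe set on chromosome 2 that is shared with the small RNA gene Snora65 differed by 0.49 ± 0.08 in KO hearts, and one on chromosome 3 shared with Gm9396 by 0.61 ± 0.11, both called in a fit of all probe sets (limma adjusted p = 0.00401 and 0.00551).

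Rps4x encodes the X-linked form of a small subunit protein. It read 10.27, 10.39 and 10.25 in KO TAC hearts, against 9.69, 9.94 and 9.85 in KO sham hearts, and 10.01, 10.08 and 10.02 in WT TAC hearts, against 9.84, 9.80 and 9.85 in WT sham hearts. All KO TAC arrays again lay above the other 9, and all WT TAC arrays above the WT sham arrays. The difference was 0.48 ± 0.08 in KO hearts (limma adjusted p = 0.00188) and 0.21 ± 0.08 in WT hearts (limma adjusted p = 0.302). Rpl19, of the large subunit, read 10.71, 10.76 and 10.71 in KO TAC hearts, against 10.26, 10.36 and 10.41 in KO sham hearts. Its WT TAC values were 10.54, 10.41 and 10.58, against 10.39, 10.30 and 10.29 in WT sham hearts. The 3 KO TAC arrays had an SD of 0.03. Its difference was 0.38 ± 0.07 in KO hearts (limma adjusted p = 0.0047) and 0.19 ± 0.07 in WT hearts (limma adjusted p = 0.309). Rpl39, Rpl12, Rps4x and Rpl19 kept their calls in KO hearts in 12 of 12 fits that each left out 1 array.

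**Figure D2:**
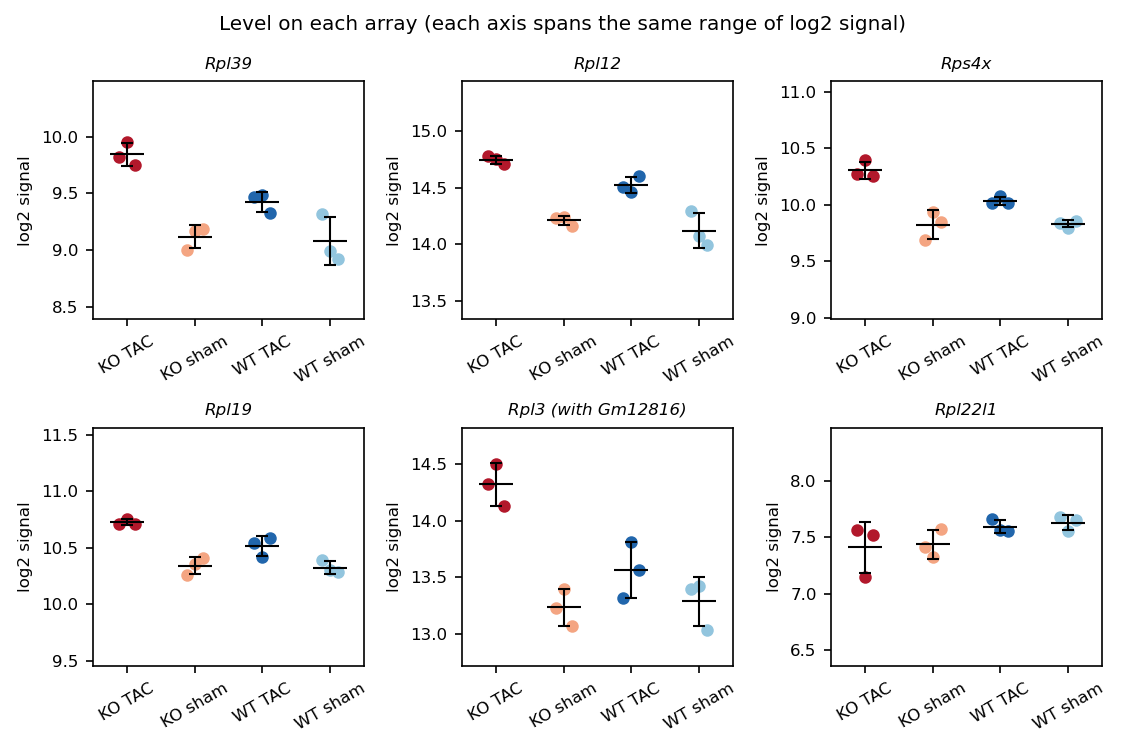
Log2 signal on each array (coloured points), with group mean and SD (black bars, n = 3), for 4 genes that rose with TAC in KO hearts, for Rpl3 on a probe set shared with Gm12816, and for Rpl22l1, which was not called. Each axis spans the same range; the KO TAC points of Rpl39, Rpl12, Rps4x, Rpl19 and Rpl3 lie above the points of the other 3 groups.

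Smaller rises were called for 3 more genes. Rps7, a small subunit protein, averaged 14.04 ± 0.08 in KO TAC hearts and 13.81 ± 0.04 in KO sham hearts (SD, n = 3 each), a difference of 0.24 ± 0.07 (limma adjusted p = 0.0384). Rpl37a averaged 9.13 ± 0.13 in KO TAC hearts and 8.87 ± 0.05 in KO sham hearts (SD, n = 3 each), a difference of 0.26 ± 0.08 (limma adjusted p = 0.0491). Rpl6 averaged 7.94 ± 0.06 in KO TAC hearts and 7.72 ± 0.02 in KO sham hearts (SD, n = 3 each), a difference of 0.22 ± 0.06 (limma adjusted p = 0.0402). Rpl37a and Rpl6 encode large subunit proteins. These calls were close to the threshold: leaving out 1 array at a time, Rps7 passed in 5 of 12 fits, Rpl6 in 4 and Rpl37a in 1. None of the 3 passed with quantile normalization, with array median centring, when all probe sets were tested or when the KO arrays were fitted alone.

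The promoters of the 7 genes that rose are shown because such genes are known to share promoter elements. The stretches run from 90 bases before to 25 after the annotated start, 5′ to 3′ on the strand of the gene, from RefSeq on GRCm38.p6. They lie at chr2:32961622-32961736 (plus strand) for Rpl12, at chr11:98026620-98026734 (plus strand) for Rpl19, where the first of 2 listed starts is shown, at chr1:72711170-72711284 (plus strand) for Rpl37a, at chr12:28635929-28636043 (minus strand) for Rps7, at chr5:121204411-121204525 (plus strand) for Rpl6, at chrX:102189367-102189481 (minus strand) for Rps4x and at chrX:37085198-37085312 (minus strand) for Rpl39. Capitals mark CCGGAAG, a motif that ETS factors bind, or CACGTG, the E-box that MYC binds, on either strand. In these stretches 3 of the 7 genes, Rpl19, Rps7 and Rpl6, have such a match, and Rpl39, Rpl12, Rps4x and Rpl37a have none.
Rpl19: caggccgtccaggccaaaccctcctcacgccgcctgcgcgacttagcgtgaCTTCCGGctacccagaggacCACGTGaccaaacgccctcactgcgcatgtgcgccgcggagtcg
Rps7: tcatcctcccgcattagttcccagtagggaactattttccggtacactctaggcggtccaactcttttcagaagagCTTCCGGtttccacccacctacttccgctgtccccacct
Rpl6: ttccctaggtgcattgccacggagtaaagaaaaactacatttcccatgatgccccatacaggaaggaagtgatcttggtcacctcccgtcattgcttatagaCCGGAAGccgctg
Rpl39: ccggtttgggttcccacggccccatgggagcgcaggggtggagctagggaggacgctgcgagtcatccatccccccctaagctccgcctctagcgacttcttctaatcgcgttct
Rpl12: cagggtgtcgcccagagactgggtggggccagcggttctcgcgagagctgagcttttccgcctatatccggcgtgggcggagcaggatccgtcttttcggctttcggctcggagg
Rps4x: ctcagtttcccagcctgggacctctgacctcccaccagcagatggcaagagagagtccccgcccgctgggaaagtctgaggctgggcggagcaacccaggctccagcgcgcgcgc
Rpl37a: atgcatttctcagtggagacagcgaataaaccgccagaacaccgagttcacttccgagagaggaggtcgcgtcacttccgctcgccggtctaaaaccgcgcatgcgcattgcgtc

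RefSeq windows from 250 bases before to 50 after the start were at hand for 31 of the 38 genes, 37 windows in all. CCGGAAG or its reverse CTTCCGG stood in 14 of them, 37.8%, beside 8.86% of all 32851 windows. A run of at least 8 pyrimidines on the strand of the gene, within 25 bases of the start, stood in 16 of them, 43.2%, beside 19.7% of all windows. AAGATGG or its reverse CCATCTT, the YY1 motif, stood in 4 windows (10.8%, beside 6.34%), CACGTG in 3 (8.11%, beside 7.15%) and TATAAA or its reverse TTTATA in 5 (13.5%, beside 13.6%). The letters of CCGGAAG and AAGATGG can overlap, and a pyrimidine run can take in part of CTTCCGG. A match is a description of these letters, and binding was not measured.

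The other 26 members with a positive difference in KO hearts were not called, and ranged from 0.03 for Rps26 to 0.34 for Rpl41. Rpl41, whose protein is among the smallest known, differed by 0.34 ± 0.14 (limma adjusted p = 0.145), and Rpl7, of the large subunit, by 0.30 ± 0.10 (limma adjusted p = 0.0613). Rpsa, a small subunit protein also known as a laminin receptor, differed by 0.28 ± 0.09 (limma adjusted p = 0.0618). Rpsa read 10.14, 10.13 and 9.97 in KO TAC hearts, against 9.79, 9.92 and 9.70 in KO sham hearts. These groups did not overlap.

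Replicates of the members lay close together. Their SD within groups ran from 0.045 to 0.277 with a median of 0.097, beside a median of 0.139 over all genes. Single arrays stood out for some: Rpl32l, a gene named for its likeness to Rpl32, read 11.43 in WT sham replicate 3, against 12.31 and 12.28 in replicates 1 and 2. That array was low for the members as a set, with the lowest centred median of all arrays, -0.14. Rplp0, which anchors the acidic stalk proteins and is often used as a reference gene in PCR, differed by 0.09 ± 0.08 in KO hearts and by 0.02 ± 0.08 in WT hearts. It averaged 10.84 ± 0.07 in KO TAC hearts and 10.75 ± 0.08 in KO sham hearts (SD, n = 3 each).

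Of the 38, 5 had a negative difference in KO hearts, and none was called lower. The lowest was Rpl31, of the large subunit, at -0.26 ± 0.10 (limma adjusted p = 0.119). With quantile normalization Rpl31 was called lower, at -0.31 (limma adjusted p = 0.0322). It read 8.74, 8.47 and 8.56 in KO TAC hearts, against 8.90, 8.73 and 8.93 in KO sham hearts. Its probe set carries chromosome 7 and the gene lies on chromosome 1. The probe set on chromosome 1, shared with the pseudogene Rpl31-ps12, differed by 0.12 ± 0.09 in KO hearts (limma adjusted p = 0.556), so the sign of Rpl31 depends on the probe set. The others were Rps19bp1 at -0.09 ± 0.07, Rpl39l at -0.04 ± 0.10, Rpl22l1 at -0.03 ± 0.11 and Rpl38 at -0.02 ± 0.10.

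Paralogues were set beside the ubiquitous forms. Rpl39l and Rpl10l, known from the testis as counterparts of Rpl39 and Rpl10, were dim here, the only members with a mean signal under 5. Rpl39l read 3.75 to 3.97 in KO TAC hearts and 3.89 to 3.97 in KO sham hearts, while Rpl39 rose. Rpl10l differed by 0.07 ± 0.15 in KO hearts and by 0.34 ± 0.15 in WT hearts (limma adjusted p = 0.846 and 0.387). Rpl22l1, which can replace Rpl22, averaged 7.41 ± 0.23 in KO TAC hearts and 7.44 ± 0.13 in KO sham hearts (SD, n = 3 each). Rpl22 itself differed by 0.20 ± 0.08 in KO hearts (limma adjusted p = 0.176) and by 0.24 ± 0.08 in WT hearts (limma adjusted p = 0.264). Rps27l, a paralogue of Rps27 known as a p53 target, differed by 0.27 ± 0.10 in KO hearts (limma adjusted p = 0.122) and by 0.02 ± 0.10 in WT hearts. Rpl3l, the form of Rpl3 in striated muscle, was not analysed here.

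**Figure D3:**
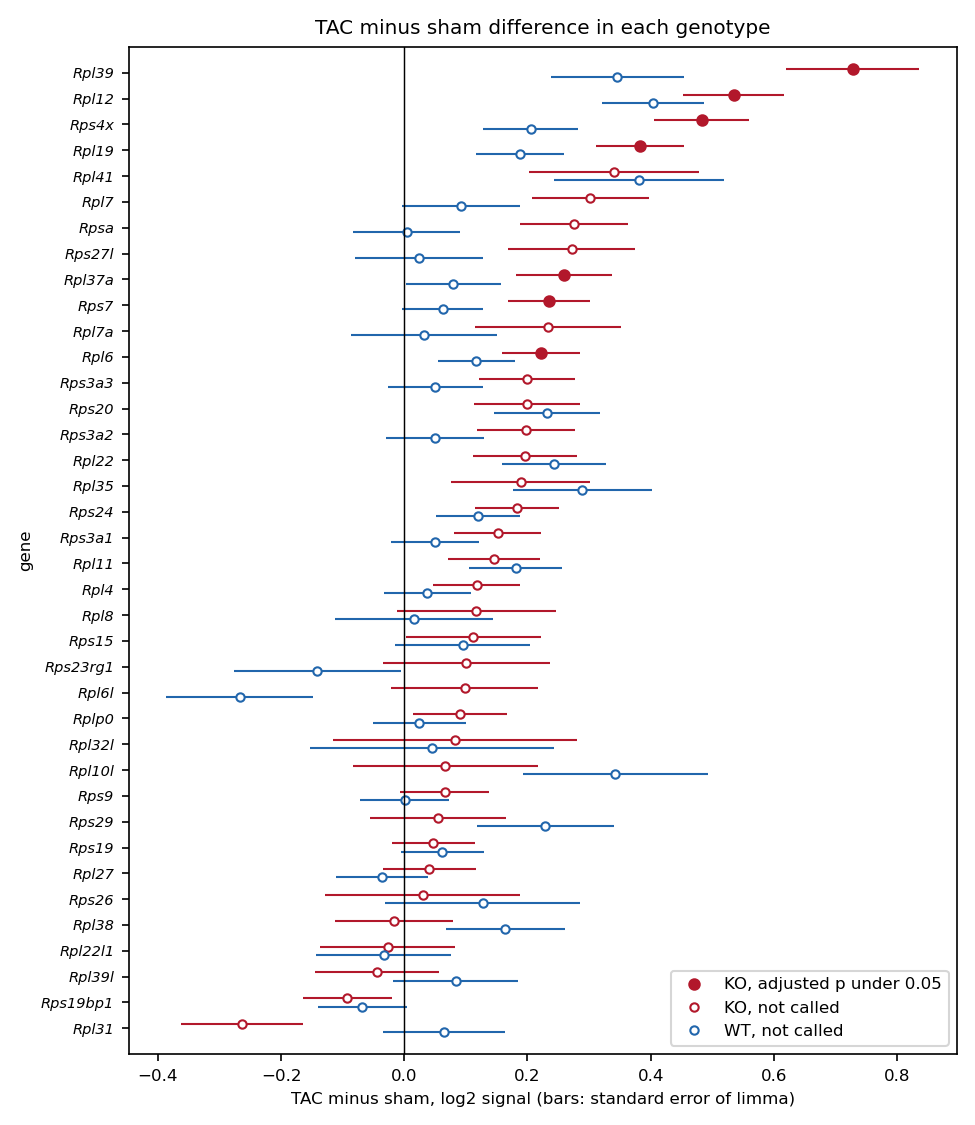
TAC minus sham difference in log2 signal (points) with the standard error of limma (bars) for each of the 38 genes, KO in red and WT in blue; filled points have an adjusted p under 0.05. In KO hearts 7 points are filled, led by Rpl39 at 0.73 and Rpl12 at 0.53, while no WT point is filled.

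In WT hearts the same comparison gave a smaller median, 0.07 beside 0.02 over all genes, with 33 of 38 positive, beside 57% of all genes. By limma 0 of 38 passed, beside 0.178% of all genes called in either direction (0.0667% of all genes higher, 0.111% lower). Of the members 11 had an unadjusted p under 0.05, beside 12.3% of all genes, and 10 of the 11 were positive (26.3% of members, beside 6.8% of all genes). The 3 WT TAC arrays lay above the 3 WT sham arrays for 8 of 38 genes, beside 9.03% of all genes, and below them for 0 of 38, beside 7.07%. Rpl41 differed by 0.38 ± 0.14 (limma adjusted p = 0.282) with WT TAC replicate 2 at 15.20 and replicates 1 and 3 at 14.73 and 14.62, against 14.62, 14.41 and 14.37 in WT sham hearts. The pseudogene Rpl6l was the lowest at -0.27 ± 0.12 (limma adjusted p = 0.398).

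Averaged over genotypes, TAC raised 8 of 38 genes and lowered 0, which is 21.1% called higher, beside 7.49% of all genes called higher, 6.12% lower and 13.6% in either direction. The median was 0.13, beside -0.0038 over all genes, and 33 of 38 were positive, beside 48.8% of all genes. Unadjusted, 17 had a p under 0.05, all higher (44.7% of members, beside 13% of all genes). Rpl39 rose by 0.54 ± 0.08 (limma adjusted p = 0.000974), Rpl12 by 0.47 ± 0.06 (limma adjusted p = 0.000465), Rps4x by 0.34 ± 0.05 and Rpl19 by 0.29 ± 0.05 (limma adjusted p = 0.00173 and 0.00329). Rpl41 rose by 0.36 ± 0.10, Rpl22 by 0.22 ± 0.06, and Rps20 by 0.22 ± 0.06 (limma adjusted p = 0.0297, 0.0309 and 0.0374). The eighth was Rpl6, at 0.17 ± 0.04 (limma adjusted p = 0.0268). Leaving out 1 array at a time, Rpl41 passed in 6 of 12 fits, Rpl22 in 5, Rpl6 in 4 and Rps20 in 2. Rpl39, Rpl12, Rps4x and Rpl19 passed in 12 of 12. None of Rpl41, Rpl22, Rpl6 and Rps20 passed with array median centring, or on its brightest probe set when all probe sets were tested. In that last fit a dimmer set of Rpl41, whose identifier carries the chromosome of the gene, rose by 0.24 ± 0.06 (limma adjusted p = 0.0284).

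Between genotypes after TAC, a comparison that shares the KO TAC arrays with that of TAC in KO hearts, KO hearts were higher for 32 of 38 genes, beside 38.3% of all genes, with a median of 0.13 beside -0.04. By limma 0 of 38 passed, beside 0.0111% of all genes, and 9 had an unadjusted p under 0.05, all higher in KO (23.7% of members, beside 6.88% of all genes). The groups did not overlap, with KO higher, for 15 of 38 genes, beside 7.91% of all genes, and with KO lower for 0, beside 11.3%. Rpl39 differed by 0.42 ± 0.11 (limma adjusted p = 0.0981) and Rps4x by 0.27 ± 0.08 (limma adjusted p = 0.127). Rpl7a, of the large subunit, differed by 0.32 ± 0.12 (limma adjusted p = 0.245). After sham surgery the median of KO minus WT was 0.05, beside 0.01 over all genes, and 29 of 38 were positive, beside 51.9%. By limma 0 of 38 passed, beside 0% of all genes. Unadjusted, 3 had a p under 0.05, beside 5.54% of all genes, and 2 of these were higher in KO, beside 2.82%. The sham groups did not overlap for 1 member with KO higher (Rpl41), beside 6.43% of all genes, and for 1 with KO lower (Rpl6l), beside 5.9%. Averaged over surgeries the median of KO minus WT was 0.09, beside -0.02 over all genes, and 32 of 38 were positive, beside 42.7% of all genes. By limma 0 of 38 passed, beside 0% of all genes. Unadjusted, 10 had a p under 0.05, beside 10.1% of all genes, and 9 of these were higher in KO, beside 4.94%.

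Whether the TAC response of a gene differed between genotypes was tested as an interaction, KO response minus WT response. By limma 0 of 38 passed, beside 0% of all genes, and the smallest adjusted p was 0.382. The median was 0.07, beside -0.04 over all genes, and 25 of 38 were positive, beside 41.2% of all genes. Unadjusted, 4 members had a p under 0.05, beside 11% of all genes. A larger response of the ribosomal proteins in KO hearts was thus not shown for any single gene.

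Many ribosomal protein genes could be read only where their probe set also carries another symbol, often a pseudogene or a small nucleolar RNA in an intron. There were 48 such probe sets, for 43 genes, and they were tested in a fit of all probe sets. In KO hearts 5 of 48 rose with TAC and 0 fell, beside 6.46% of all probe sets called in either direction. Of the 48, 41 were positive and the median was 0.18. Rpl3, a large subunit protein close to the peptidyl transferase centre, had the largest difference. On its probe set, shared with Gm12816, it read 14.33, 14.50 and 14.13 in KO TAC hearts, against 13.23, 13.40 and 13.07 in KO sham hearts. In WT TAC hearts it read 13.32, 13.81 and 13.57, against 13.40, 13.43 and 13.03 in WT sham hearts. The KO groups were far apart and the WT groups overlapped. The difference was 1.09 ± 0.16 in KO hearts (limma adjusted p = 0.00206) and 0.28 ± 0.16 in WT hearts (limma adjusted p = 0.573), and KO exceeded WT after TAC by 0.76 ± 0.16 (limma adjusted p = 0.119). The interaction of 0.81 ± 0.22 did not pass (limma adjusted p = 0.414). The other called sets were the Rpl12 pair described above and a pair for Rps12, at 0.42 ± 0.09 and 0.38 ± 0.08 (limma adjusted p = 0.0186 and 0.0167). The first Rps12 set also carries the symbol Rps12l1 and has chromosome 7 in its identifier, while the second has chromosome 10. Rplp1, an acidic stalk protein, differed by 0.45 ± 0.13 on a set shared with Gm13777 (limma adjusted p = 0.0655). Averaged over genotypes 9 of 48 rose and 0 fell, beside 7.28% of all probe sets called in either direction.

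Ribosomal protein genes have many processed copies that are close in sequence, and array probes may not separate them. Symbols marked -ps gave 169 genes with a probe set of their own. In KO hearts 31 of these rose with TAC (18.3%, beside 7.08% of all genes) and 1 fell, 128 (75.7%) were positive, and the median was 0.14, near that of the 38 genes. The identifiers of 33 of the 38 probe sets carry the chromosome of the gene, and those of Rpl7a, Rpl12, Rpl31, Rpl35 and Rpl41 carry another. Restricted to 28 coding subunit genes read on their own chromosome, 6 rose in KO hearts (21.4%, beside 7.08% of all genes) and the median was 0.13.

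Other parts of the translation machinery are given beside the ribosomal proteins, for KO TAC minus KO sham, where 7.08% of all genes were called higher and 5.68% lower. Of 9 elongation factors 1 rose and 2 fell. Eef1a1, which brings aminoacyl-tRNA to the ribosome, rose by 0.75 ± 0.13 (limma adjusted p = 0.00245), while Eef1a2, its form in adult muscle and neurons, fell by 0.31 ± 0.08 (limma adjusted p = 0.0225). Eef1d, an exchange factor subunit, fell by 0.30 ± 0.08 (limma adjusted p = 0.0391). Eef2, the translocation factor, differed by 0.21 ± 0.08 (limma adjusted p = 0.127). Of 27 initiation factors 2 rose and 0 fell: the helicase Eif4a1 rose by 0.51 ± 0.10 (limma adjusted p = 0.00542) and Eif3h by 0.32 ± 0.07 (limma adjusted p = 0.0132). Of 7 other genes with TOP mRNAs 3 rose and 0 fell. The poly(A) binding protein Pabpc1 rose by 0.88 ± 0.10 (limma adjusted p = 0.000446), vimentin (Vim) by 0.96 ± 0.19 and the histone chaperone Nap1l1 by 0.31 ± 0.09. Tpt1, another TOP mRNA, differed by 0.09 ± 0.06 (limma adjusted p = 0.438).

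Genes that make ribosomes were called in both directions. Of 41 nucleolar assembly factors 2 rose and 2 fell (9.76% in either direction, beside 12.8% of all genes), with a median of 0.09. Nsa2, of the large subunit precursor, rose by 0.33 ± 0.06 (limma adjusted p = 0.00337), and Utp4 and Dkc1 fell by 0.28 ± 0.08 and 0.23 ± 0.07 (limma adjusted p = 0.0417 and 0.0431). Nucleolin (Ncl), nucleophosmin (Npm1) and fibrillarin (Fbl) differed by 0.04 ± 0.08, 0.18 ± 0.09 and 0.19 ± 0.06, and none passed. Of 25 genes of RNA polymerase I and III 0 rose and 4 fell (16% lower, beside 5.68% of all genes). Polr1a, the catalytic subunit that transcribes ribosomal RNA, fell by 0.68 ± 0.09 (limma adjusted p = 0.000889). A broad list of 17 genes drawn up around mTOR and TOP regulation had a median of -0.0082, with 7 positive. Of these 2 rose (11.8%, beside 7.08% of all genes): Myc by 0.78 ± 0.14 and Rps6ka3, a kinase, by 0.53 ± 0.07. Sesn1, an inhibitor of mTOR complex 1, fell by 0.47 ± 0.10, and 2 of the 17 fell in all. Mtor and Larp1, which binds TOP mRNAs, differed by -0.16 ± 0.08 and -0.04 ± 0.07 and did not pass.

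Mitochondrial ribosomal proteins stood on the other side of 0. Of 60 in KO hearts, 0 rose and 21 fell with TAC (35% lower, beside 5.68% of all genes), and 6 were positive, with a median of -0.21. Mrps35, Mrpl47 and Mrpl51 fell by 0.65 ± 0.09, 0.56 ± 0.09 and 0.46 ± 0.08 (limma adjusted p = 0.00115, 0.00142 and 0.00229). In WT hearts 0 of 60 passed and the median was -0.05. The difference between the cytosolic and the mitochondrial set was not tested.

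**Figure D4:**
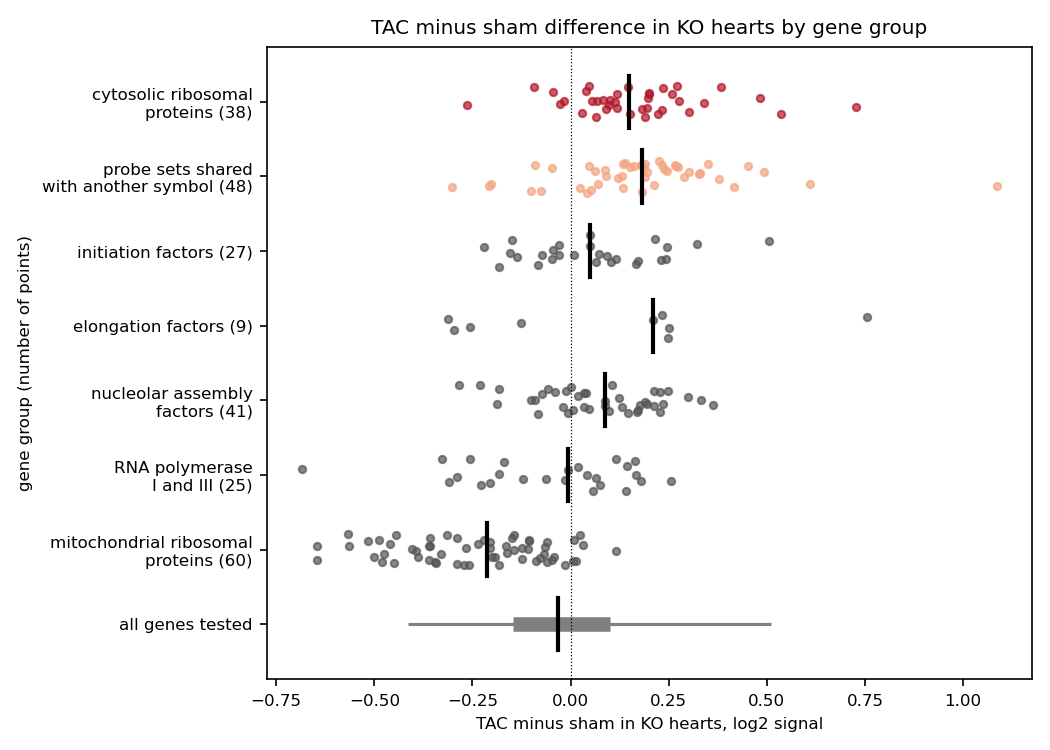
TAC minus sham difference in KO hearts, in log2 signal, for single genes or probe sets (points) of the groups named on the left, with the number of points in brackets and the median as a black line; points are spread vertically for visibility. For all genes tested, the thick grey bar spans the 25th to 75th percentile and the thin line the 5th to 95th. Cytosolic ribosomal proteins have a median of 0.15 and mitochondrial ones of -0.21, beside -0.03 for all genes.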

How the data were processed

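The authors hybridised biotin-labelled RNA (250 ng per heart) to Clariom D arrays and deposited log2 signals per probe set. The submitters' processing notes name Affymetrix Expression Console for them, per the labels; the normalization is not given in the sources used here, and the log2 scale was read from the values, which ran from 1.27 to 19.93. The table held 65527 probe sets. Without 6732 controls, 58795 remained, of which 27268 carried 1 gene symbol in GEO's platform annotation, 1932 several and 29595 none. Each of 26989 genes was tested on its brightest probe set with 1 symbol.

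limma 3.58.1 in R 4.3.3 was fitted to all 12 arrays with 1 mean per group (8 residual and 3.29 prior degrees of freedom), 2-sided, with Benjamini-Hochberg adjustment over all genes. The threshold for a call was an adjusted p of 0.05. A difference carries limma's standard error and a level its SD over 3 arrays. P-values rest on 1 estimate of the spread per gene, shared by the 4 groups and drawn towards that of other genes. With 3 hearts a group, precision is limited. The code was tested on simulated data.

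The members and lists were chosen with earlier results of these data known. Named were, per comparison, up to 8 called members in each direction, a set of paralogues and stalk proteins, and up to 3 genes of each other list with the smallest p, with a few translation genes; other members are named with their values seen. RefSeq lists 89 coding symbols that meet the symbol rule: 35 were members, 38 were read only on shared probe sets and 16 were not analysed here. The planned test of Rpl3l against Rpl3 was not run, because Rpl3l is among the 16. Alternatives covered normalization, filtering, probe set choice, variance model, array weights, a replicate block, the groups in the fit and leaving out each array.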

Additional observations from a re-analysis of the deposited data

How the results depend on the processing

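The count in KO hearts (7) was 4 when all probe sets were tested (beside 6.46% of all probe sets called) and 4 to 7 when single arrays were left out (beside 7.77% to 13.7% of all genes). It was 4 without WT sham replicate 1 or 2, any KO sham replicate or KO TAC replicate 2. Counted on the brightest set per gene, Rpl39, Rpl12, Rps4x and Rpl19 were the 4 called with all probe sets, there and averaged over genotypes. Dimmer sets of Rpl41 and Rpl35, not in this count, also passed in that fit averaged over genotypes (limma adjusted p = 0.0284 and 0.0449). The averaged count (8) was 4 with array median centring, 4 with all probe sets, 14 of 36 without genes dimmer than 5, and 4 to 8 without single arrays, where 12.4%, 7.28%, 28.1% and 10.2% to 14.3% of all genes were called in either direction: 4 without WT sham replicate 3, KO sham replicate 1 or KO TAC replicate 2, and 5 without WT sham replicate 2 or WT TAC replicate 2. More or fewer genes tested changes the adjustment; the cause of the other changes was not tested. The WT count was 1 without dim genes (Rpl12, adjusted p = 0.0405, beside 1.09% of all genes) and 0 to 0 without single arrays. The counts of KO against WT after TAC and averaged over surgeries were 0 to 1, each 1 without WT TAC replicate 2 (Rpl41 in the average), where 2.87% and 0.522% of all genes were called. Those for genotype after sham and for the interaction were 0 to 0.

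The WT median was 0.0316 with array median centring and 0.0493 to 0.1275 without single arrays. Without single arrays the other medians were 0.1353 to 0.1772 (TAC in KO), 0.1073 to 0.1528 (KO against WT after TAC), 0.0162 to 0.0959 (after sham), 0.0366 to 0.1261 (interaction), 0.0975 to 0.1437 (TAC averaged) and 0.075 to 0.0966 (genotype averaged). The highest WT and sham medians came without WT sham replicate 1 and the highest interaction median without WT sham replicate 3.

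Among the named members, signs turned only for values near 0 that were not called in any of the fits run. With quantile normalization Rpl39l was 0.0174 for TAC in KO and 0.0058 for genotype averaged, and Rpsa -0.000416 for TAC in WT. With array median centring Rps27l, Rplp0 and Rpsa were -0.0163, -0.0159 and -0.0363 for TAC in WT, and with array weights Rpsa was -0.0198. Leaving out single arrays, Rpl39l, Rpl10l and Rpl22l1 ran from -0.0834 to 0.0253, -0.0792 to 0.1631 and -0.1034 to 0.1036 for TAC in KO, and Rpl39l from -0.0785 to 0.0211 for genotype averaged. For TAC in WT the ranges were -0.0042 to 0.1952 for Rpl39l, -0.0797 to 0.1216 for Rps27l, -0.0228 to 0.0784 for Rplp0 and -0.0554 to 0.0456 for Rpsa.

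Replicate numbers were not taken as pairs in the main fit, though same-numbered arrays were somewhat alike. Between groups they correlated at -0.07 to 0.31 in their deviations (median 0.12, 10 of 18 above 0.1), beside a median of -0.06 for arrays of different number. Of 12 arrays, 8 correlated best with their own number. What the numbers share was not tested. With the replicate block 9 members were called in KO hearts, 10 averaged and 0 in WT hearts, beside 14.3%, 15% and 0.986% of all genes. Named members not called for TAC in KO hearts that passed elsewhere were Rpl7 in 4 of 9 other settings, Rps27l in 2 and Rpsa in 4, all higher, and Rpl31 in 1, lower. Choosing only coding members on their own chromosome, or the shared probe sets, was added after seeing the data.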

Other observations

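Chosen after their values were seen, the 2 members on the X chromosome, Rpl39 and Rps4x, were the first and the third in size of the TAC difference in KO hearts, at 0.73 and 0.48. The shared probe sets with chromosome X in their identifier, for Rpl10, Rps2 and Rpl36a with Rpl36al, were not called for TAC in KO hearts. X-linked genes as a group were not examined.

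Rps26, a small subunit protein, was read on 3 probe sets with 1 symbol each. Its TAC difference in KO hearts was 0.03 ± 0.16 on the brightest, 0.03 ± 0.22 on the next and -0.34 ± 0.18 on the dimmest, and none passed in the fit of all probe sets (limma adjusted p = 0.956, 0.971 and 0.377). Rpl35, Rpl41 and Rpl7a were each read on 2 probe sets, and both sets of each gene had a positive TAC difference in KO hearts. For Rpl41 these were 0.34 ± 0.14 and 0.22 ± 0.08, for Rpl7a 0.23 ± 0.12 and 0.13 ± 0.09, and for Rpl35 0.19 ± 0.12 and 0.18 ± 0.10, none of them called.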
